A study of Mus musculus with 6 samples.

Results

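The miR-199 and miR-214 cluster was followed in mouse kidney as 5 mature microRNAs (miRNAs), listed on the array as mmu-miR-199a-3p, mmu-miR-199a-5p, mmu-miR-199b-5p, mmu-miR-214-3p and mmu-miR-214-5p and written here without the species prefix. They were chosen by name, with earlier results of these data known, and are 5 of the 1247 mouse miRNAs that the array measures. The study set aged kidney (male C57BL/6 mice of 20 months, 3 arrays) against young kidney (male C57BL/6 mice of 2 months, 3 arrays). C57BL/6 is an inbred laboratory strain, and the labels give no mutation or treatment for either age. Each array received 1 preparation of whole-kidney RNA labelled with Cy3. The labels do not say how many animals stand behind a preparation, so the p-values reflect variation from one preparation to the next, some of which may be technical.

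A miRNA is cut from a hairpin transcript. Either arm of the hairpin (5p or 3p) can be loaded onto an Argonaute protein, and bases 2 to 8 of the loaded strand, the seed, pair with target messenger RNAs. miR-199a and miR-214 are known from mesenchymal cells such as fibroblasts, pericytes and smooth muscle, and both have been studied as promoters of fibrosis, including in injured kidney. 1 copy of miR-199a and miR-214 are processed from the same long noncoding transcript, Dnm3os, which runs antisense to the dynamin gene Dnm3.

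The mature sequences show which members an array can tell apart. Mature sequences from RefSeq (GRCm38.p6) were matched for 4 of the 5 members, and that of miR-199b-3p is shown because it is the opposite arm of miR-199b-5p. Each is written 5′ to 3′ with the seed in capitals.
miR-199a-3p: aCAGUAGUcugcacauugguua
miR-199b-3p: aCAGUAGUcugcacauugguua
miR-199a-5p: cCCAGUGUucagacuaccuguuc
miR-214-3p: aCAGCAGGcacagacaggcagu
miR-214-5p: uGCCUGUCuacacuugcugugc

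The 3p arms of miR-199a and miR-199b are the same molecule in sequence. The array lists no miR-199b-3p, so the signal named miR-199a-3p sums over both. The 4 members with a matched sequence carry distinct seeds. The seeds of miR-199a-3p and miR-214-3p differ at 2 of their positions, and those of miR-199a-5p and miR-199a-3p at 4. Among 1679 mature mouse sequences, the miR-214-3p seed CAGCAGG recurred only in miR-761, whose probes were well above background on 0 of the 6 arrays.

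The hairpins show where the signal can come from. They lie at chr9:21496495-21496564 on the minus strand (Mir199a-1), chr1:162217814-162217923 on the plus strand (Mir199a-2), chr2:32318460-32318569 on the plus strand (Mir199b) and chr1:162223368-162223477 on the plus strand (Mir214), all in GRCm38.p6. Each lies within a dynamin gene and on its opposite strand: Mir199a-1 within Dnm2, Mir199b within Dnm1, and Mir199a-2 and Mir214 within Dnm3. Mir199a-2 and Mir214 also lie within Dnm3os and on its strand, with 5444 bases between the hairpins. Capitals mark the mature arms, and in Mir199b the 5′ capitals mark the stretch that best matched miR-199a-5p.
Mir199a-1: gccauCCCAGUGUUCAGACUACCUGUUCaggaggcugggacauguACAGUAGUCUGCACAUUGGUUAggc
Mir199a-2: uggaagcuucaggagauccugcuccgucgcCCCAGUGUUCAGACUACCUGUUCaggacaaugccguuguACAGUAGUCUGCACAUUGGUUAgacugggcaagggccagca
Mir199b: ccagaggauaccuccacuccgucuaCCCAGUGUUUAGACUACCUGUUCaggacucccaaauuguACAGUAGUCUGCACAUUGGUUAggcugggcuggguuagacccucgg
Mir214: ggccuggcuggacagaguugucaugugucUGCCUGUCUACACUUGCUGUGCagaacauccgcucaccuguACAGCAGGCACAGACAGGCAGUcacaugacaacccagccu

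Both miR-199a hairpins give the same 2 mature arms, so an array cannot assign their signal to a locus. In Mir199b, the stretch that best matched miR-199a-5p differed from it at 1 of 23 positions, by C10U, counted from 1 at the 5′ end of miR-199a-5p. That position lies outside bases 2 to 8, so the Mir199b stretch carries the same seed letters as miR-199a-5p. How far the probes for miR-199a-5p and miR-199b-5p bind each other's miRNA was not tested.

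The start of Dnm3os is the shared upstream sequence of the members from chromosome 1. The window from 250 bases before to 50 bases after that start (chr1:162217373-162217672, plus strand, RefSeq, GRCm38.p6) is shown with the matches to 2 motifs in capitals. The motifs were the E-box CANNTG, the site type bound by Twist1 and other basic helix-loop-helix factors, and the CArG box, the site type bound by serum response factor. Both were chosen after the sequence had been read. Each pattern is its own reverse complement, so the search of the written strand covers both strands.
Dnm3os: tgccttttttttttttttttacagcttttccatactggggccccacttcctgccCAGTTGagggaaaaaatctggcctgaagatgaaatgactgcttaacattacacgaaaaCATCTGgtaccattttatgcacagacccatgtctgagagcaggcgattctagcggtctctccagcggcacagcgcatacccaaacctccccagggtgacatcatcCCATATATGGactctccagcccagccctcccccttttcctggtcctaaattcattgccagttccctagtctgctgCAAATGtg

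CANNTG matched at 3 places in this window, and 72.3% of 32851 promoter windows of the same length held it. The CArG box matched once, as CCATATATGG, starting 33 bases before the transcript's start, and 1.63% of the windows held one. The 2 motifs did not overlap here. These are matches of letters and were not measured as binding.

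Each array held 52044 spots. Intensities were scaled to each array's 75th percentile over the 315 probes that were well above background on all 6 arrays, summed over the probes of a miRNA and expressed as log2, so that 0 equals that percentile. A probe counted as well above background when over 50% of its spots carried the scanner software's mark. Aged arrays detected 201, 206 and 177 miRNAs and young arrays 209, 193 and 200, no spot was saturated, and the number of arrays limits the precision. The scaling percentile was 2054 intensity units on aged array 2 and 1171 to 1415 on the other 5 arrays, and aged arrays 2 and 3 lay in another row of the slide than the remaining arrays. As to the tissue, the kidney tubule miRNAs miR-192-5p, miR-194-5p and miR-204-5p were detected on all 6 arrays and miR-215-5p on none, while miR-122-5p of liver and miR-9-5p of brain were detected on 0 arrays. Of the other miRNAs listed for other organs, the neural miR-124-3p was detected on 3 arrays, all aged, the muscle miRNA miR-1a-3p on 4, and miR-133a-3p and miR-206-3p on none.

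The signals of miR-199a-3p, which include miR-199b-3p, and of miR-199a-5p rose in aged kidney. miR-199b-5p and miR-214-3p stood higher on every aged array without passing the threshold, and miR-214-5p was not measurable at either age. The rises were modest, 1.32-fold for miR-199a-3p and 1.27-fold for miR-199a-5p. Of the 193 miRNAs tested in the same fit, 4.15% were called higher (8 miRNAs, beside 7 lower), and 2 of the 4 tested members were among them. That split depended on the scaling, with 18 higher and 3 lower after scaling to the median and 19 higher and 2 lower after quantile normalization, and 10 higher and 0 lower in the authors' values. All 4 tested members were well above background on all 6 arrays, so the detection filter did not select them by age.

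miR-199a-3p, whose signal includes the identical miR-199b-3p, had scaled signals of 0.54, 0.69 and 0.50 on aged arrays 1 to 3, against 0.11, 0.15 and 0.25 on young arrays 1 to 3 (log2). Every aged array lay above every young one, and aged array 2 was highest. The means were 0.57 ± 0.10 in aged and 0.17 ± 0.07 in young kidney (SD, n = 3 each). The difference was 0.40 ± 0.09 (log2, SE; 95% interval 0.20 to 0.61; limma adjusted p = 0.0391).

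miR-199a-5p, the opposite arm, had scaled signals of -1.68, -1.65 and -1.67 on the aged arrays, against -2.03, -1.99 and -2.01 on the young arrays (log2). The groups did not overlap, and the arrays of each group lay closer together than for the other tested members. The means were -1.67 ± 0.01 in aged and -2.01 ± 0.02 in young kidney (SD, n = 3 each). The difference was 0.34 ± 0.06 (log2, SE; 95% interval 0.19 to 0.50; limma adjusted p = 0.0258).

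miR-199b-5p, whose hairpin lies within Dnm1, had scaled signals of -0.92, -0.85 and -0.87 on the aged arrays, against -1.27, -1.29 and -1.08 on the young arrays (log2). The groups did not overlap, and young array 3 came closest to the aged ones. The means were -0.88 ± 0.04 in aged and -1.21 ± 0.11 in young kidney (SD, n = 3 each). The difference was 0.33 ± 0.08 (log2, SE; 95% interval 0.13 to 0.53), and it missed the threshold of 0.05 with a limma adjusted p of 0.0551.

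miR-214-3p, which shares the Dnm3os transcript with 1 copy of miR-199a, was dim, with scaled signals of -4.06, -4.03 and -3.87 on the aged arrays, against -4.30, -4.38 and -4.18 on the young arrays (log2). The groups did not overlap, although aged array 1 and young array 3 lay near each other. The means were -3.99 ± 0.10 in aged and -4.29 ± 0.10 in young kidney (SD, n = 3 each). The difference was 0.30 ± 0.09 (log2, SE; 95% interval 0.08 to 0.52; limma adjusted p = 0.0939).

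miR-214-5p, the opposite arm of that hairpin, was well above background on 0 of the 6 arrays with any of its 4 probes and was not tested. Its summed intensities were 18.1, 11.8 and 2.41 units on aged arrays 1 to 3, against 44.8, 27.1 and 28.8 on young arrays 1 to 3. After scaling, 5 of these 6 values lay under the floor of -5.22 (log2), the lowest level counted as signal, so no fold is given. For comparison, the summed intensities of miR-199a-3p were 1698 to 3311 units on aged arrays and 1337 to 1522 on young arrays, but signals of different probes do not give relative abundance.

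**Figure D1:**
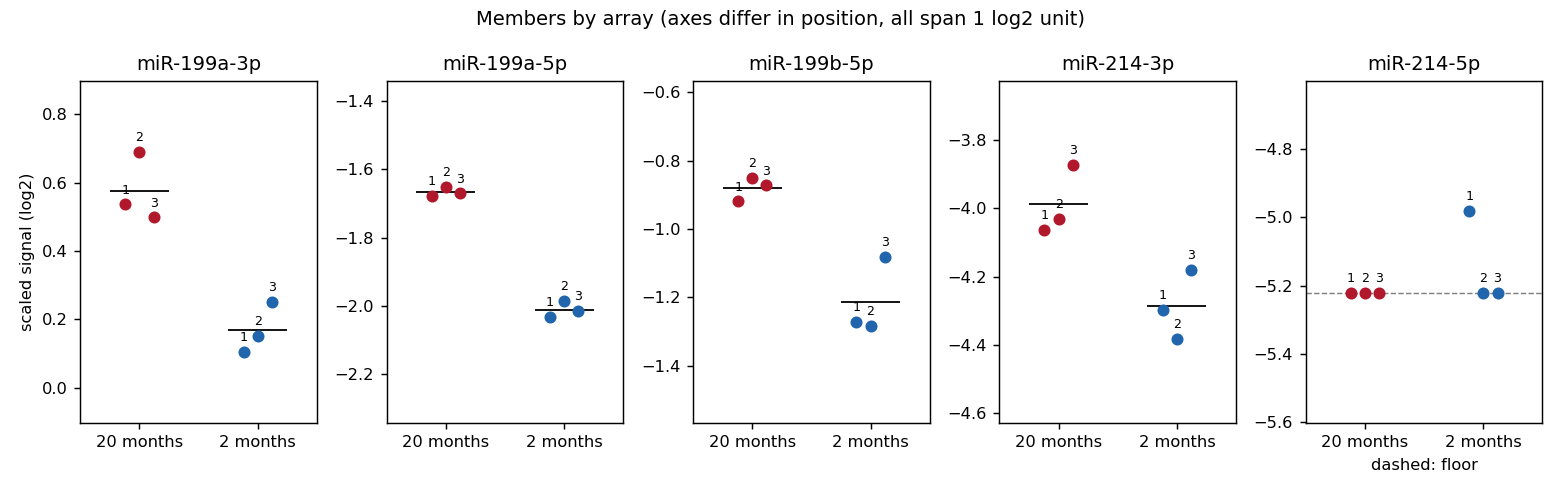
Scaled signal (log2, vertical axis) of each member on the 3 aged (20 months, red) and 3 young (2 months, blue) arrays, numbered by replicate. Lines give group means, except for miR-214-5p, where the dashed line marks the floor. The aged points lie above all young points for 4 members, and 5 of the 6 points of miR-214-5p lie on the floor of -5.22.

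Complete separation of the groups was not rare on these arrays. Among the 193 tested miRNAs 10.4% (20) had every aged array above every young array, and all 4 tested members were among these. An unadjusted limma p under 0.05 with a higher aged value was found for 9.84% (19) of the tested miRNAs and for all 4 tested members. Because the members were chosen with earlier results of these data known, these shares are a background and not a test of the set. The median difference of the 4 was 0.34, beside -0.08 for all tested miRNAs. Ordered by difference, miR-199a-3p stood 10th, miR-199a-5p 12th, miR-199b-5p 13th and miR-214-3p 18th of the 193. In whole kidney, more cells that make a miRNA and more of it per cell cannot be told apart.

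**Figure D2:**
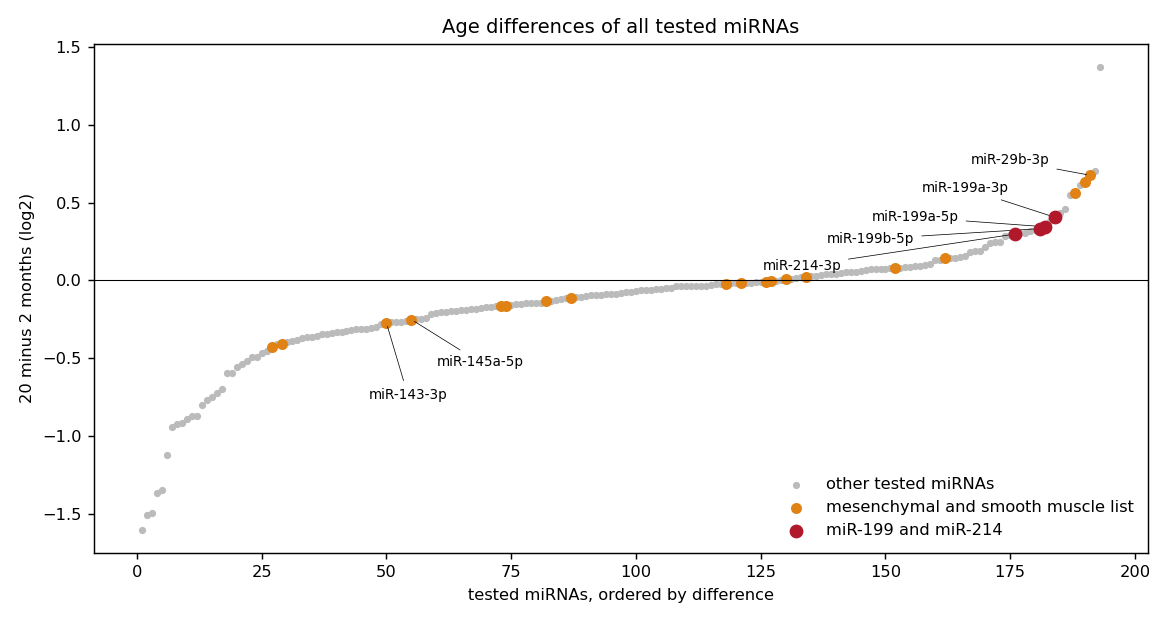
Difference between aged (20 months) and young (2 months) kidney (log2, vertical axis) of the 193 tested miRNAs in order of size, with the 4 tested members in red and the mesenchymal and smooth muscle list in orange. The members lie between 0.30 and 0.40, while miR-143-3p and miR-145a-5p lie below 0.

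Each tested member was read by 2 probes of 20 spots, and both probes of a member pointed the same way. For miR-199a-3p the probes gave differences of 0.43 ± 0.09 and 0.39 ± 0.09 (log2, SE; limma adjusted p = 0.0417 and 0.0510 over the 354 probes tested, of which 3.67% were called higher). The first of these and the main probe of miR-199a-5p, at 0.35 ± 0.07 (limma adjusted p = 0.0304), were the members' 2 calls at probe level. The probes of miR-199b-5p gave 0.34 ± 0.09 and 0.33 ± 0.08 (limma adjusted p = 0.0702 for both). The main probe of miR-214-3p gave 0.27 ± 0.09 (limma adjusted p = 0.109).

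The second probes of miR-199a-5p and miR-214-3p were dim. That of miR-199a-5p was well above background on 2 aged and 0 young arrays, with mean intensities of 35.0 to 60.8 units in aged and 31.0 to 34.3 in young kidney. That of miR-214-3p was well above background on none, at no more than 27.0 units in aged and 14.6 in young kidney, and its groups overlapped. Between spots of a probe, the coefficient of variation was 3.26 to 12.8% for the probes of miR-199a-3p and 8.86 to 17.6% for the main probe of miR-214-3p.

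The authors' processed table, on its own log2 scale, gave the same order of groups. There miR-199a-3p had values of 3.11, 3.42 and 3.13 on the aged arrays, against 2.67, 2.68 and 2.76 on the young arrays. The groups did not overlap for any of the 4 members in the authors' deposited table. Fitted with limma, these values gave differences of 0.52 ± 0.11 for miR-199a-3p (adjusted p = 0.0624), 0.46 ± 0.08 for miR-199a-5p (0.0329), 0.45 ± 0.09 for miR-199b-5p (0.0624) and 0.51 ± 0.13 for miR-214-3p (0.112). Only miR-199a-5p passed, where 5.18% of the tested miRNAs were called higher. All values of miR-214-5p in the authors' deposited table equalled the value given there to undetected entries.

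Slide row was a batch that held both ages in 1 row only. Aged array 1 shared its row with the 3 young arrays, and against their mean it stood at 0.37 for miR-199a-3p, 0.33 for miR-199a-5p, 0.29 for miR-199b-5p and 0.22 for miR-214-3p (log2). Within that row 0 of the 4 members passed, where 5.70% of the tested miRNAs were called higher (limma adjusted p = 0.0750, 0.0898, 0.149 and 0.273). When all 6 arrays were fitted with the slide row blocked, the differences were the same and again 0 passed, with limma adjusted p of 0.229 for miR-199a-3p and 0.205 for miR-199a-5p, where 1.04% of the tested miRNAs were called higher. In both, the lone aged array of that row was assumed to vary like the others.

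Both calls depended on aged array 2 and on each young array. They were lost without aged array 2 (limma adjusted p = 0.0758 for miR-199a-3p and 0.0591 for miR-199a-5p), young array 1 (0.214 and 0.199), young array 2 (0.140 and 0.0836) or young array 3 (0.0836 for both). Both were kept without aged array 1 or aged array 3, where 6.22% and 5.70% of the tested miRNAs were called higher. In the fits that lost them, 1.55 to 3.11% were. Over these 6 fits the difference was 0.35 to 0.45 for miR-199a-3p and 0.33 to 0.36 for miR-199a-5p.

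**Figure D3:**
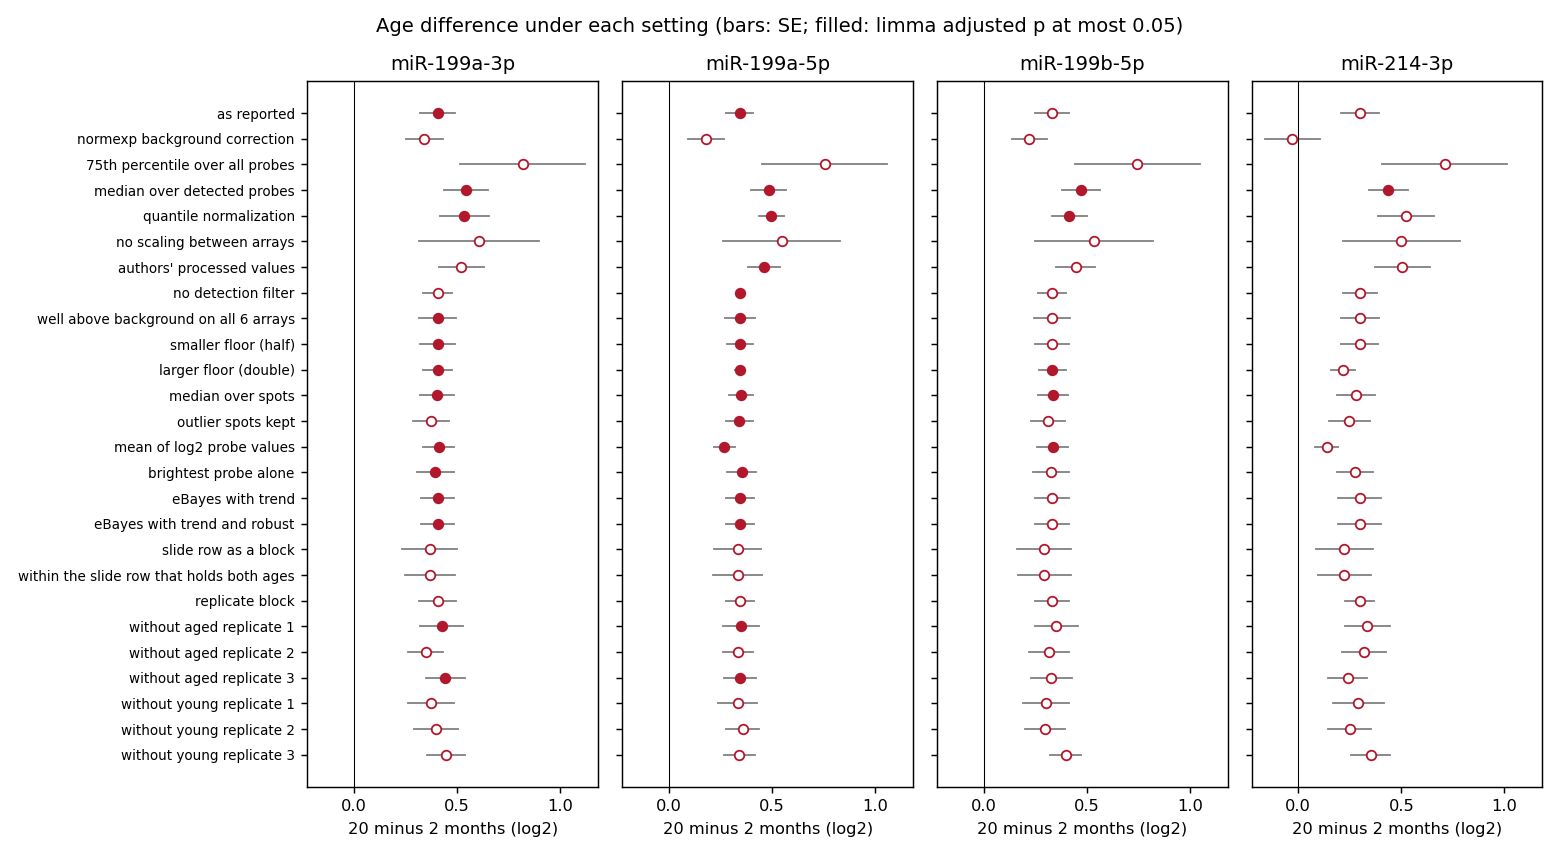
Difference between aged (20 months) and young (2 months) kidney (log2, horizontal axis) of the 4 tested members under each processing setting, with SE bars and filled points where the limma adjusted p was at most 0.05. The point of miR-214-3p falls below 0 in 1 setting, normexp background correction, at -0.028, and the other points lie above 0.

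The members were next set against each other, which asks whether arms or paralogues moved by different amounts. Scaling by 1 constant per array cancels in the log2 difference between 2 members, so such scaling does not bear on this comparison. miR-199a-3p and miR-199a-5p differed in their age difference by 0.06, with SDs of 0.09 in aged and 0.07 in young kidney (n = 3 each, exact two-sided permutation p = 0.5). The 3p signal includes miR-199b-3p, so this does not compare the arms of miR-199a alone. miR-199a-5p and miR-199b-5p differed by 0.01 (exact permutation p = 0.9). The widest gap, between miR-199a-3p and miR-214-3p, was 0.11, with SDs of 0.18 in aged and 0.07 in young kidney (exact permutation p = 0.4). Over the 6 pairs the adjusted exact permutation p was 0.84 to 0.9. With 3 arrays per group the exact test cannot go below 0.1, so it could not call a difference between members of any size.

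The members' profiles over the 6 arrays were also compared, by a distance that includes the age difference they shared. After each was centred on its own mean over the 6 arrays, the root-mean-square distance between 2 members was smallest for miR-199b-5p and miR-214-3p, at 0.062 (log2), and largest for miR-199a-3p and miR-214-3p, at 0.12. Within the aged group, array 2 was highest for the 3 miR-199 members, and array 3 for miR-214-3p. From its aged mean, miR-199a-3p deviated by 0.115 on array 2 and -0.076 on array 3, and miR-214-3p by -0.042 and 0.115. Within the young group, array 3 was highest for miR-199a-3p, miR-199b-5p and miR-214-3p, and array 2 for miR-199a-5p. These members share libraries and scaling, and some share a hairpin or near-identical sequence, so they are not independent of each other.

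Of the other tested miRNAs, 5 were closest to the mean profile of the members by the same distance over the 6 arrays. They were miR-130a-3p (distance 0.0690), miR-194-5p (0.0696), miR-338-3p (0.0731), miR-1839-3p (0.0794) and miR-146a-5p (0.0809). miR-194-5p is known as a miRNA of kidney tubule and gut epithelium, and miR-146a-5p is induced by NF-kappaB in leukocytes and other cells. Their age differences were 0.30 ± 0.10, 0.28 ± 0.09, 0.31 ± 0.08, 0.29 ± 0.09 and 0.24 ± 0.09 in that order (log2, SE), and none passed (limma adjusted p = 0.0556 to 0.140). The distance favours miRNAs with a change of the same size, which sets this list in part.

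Other miRNAs known from fibroblasts, smooth muscle or matrix did not move as a block. Of 27 listed, 19 were tested, 3 rose and 1 fell, beside 8 higher (4.15%) and 7 lower of all 193 tested miRNAs. The 3 that rose were miR-29a-3p, miR-29b-3p and miR-29c-3p, known to repress collagens, at 0.63 ± 0.07, 0.68 ± 0.07 and 0.56 ± 0.08 (log2, SE; limma adjusted p = 0.00495, 0.00399 and 0.0134). The miRNA that fell was miR-503-5p, at -0.43 ± 0.09 (limma adjusted p = 0.0320), and it was well above background on 4 of the 6 arrays. This call was lost under every other scaling and background correction tried and in the authors' values, where the difference was -0.29 to -0.016 (limma adjusted p = 0.122 to 0.969). Under the same settings the 3 miR-29 calls were lost only with no scaling (limma adjusted p = 0.151, 0.123 and 0.218). miR-218-5p stood at -0.41 ± 0.10 (limma adjusted p = 0.0528). The list's median was -0.02, beside -0.08 for all tested miRNAs.

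miR-143-3p and miR-145a-5p, which are made from 1 transcript in vascular smooth muscle, stood lower. miR-143-3p was at -1.04, -0.99 and -1.11 on the aged arrays, against -0.62, -0.85 and -0.85 on the young arrays (log2), a difference of -0.27 ± 0.09 (SE; limma adjusted p = 0.120). miR-145a-5p differed by -0.25 ± 0.09 (limma adjusted p = 0.149). Neither passed, and with scaling to the percentile of all probes their differences were 0.14 and 0.16. miR-21a-5p, induced in renal injury and among the brightest of the list, differed by 0.08 ± 0.09 (limma adjusted p = 0.586; -0.078 under quantile normalization), and miR-22-3p by -0.02 ± 0.08 (limma adjusted p = 0.900; positive under 3 other scalings, at 0.12, 0.39 and 0.18, and 0.097 in the authors' values).

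The members can be set against these miRNAs in the same way. miR-199a-3p gained 0.68 on miR-143-3p in aged relative to young kidney (log2, SDs 0.05 in aged and 0.20 in young, n = 3 each, exact two-sided permutation p = 0.1) and 0.66 on miR-145a-5p. Against miR-29a-3p it differed by -0.23 (exact permutation p = 0.1), with every aged array below every young one. For the 4 members against these 3 miRNAs, 12 pairs chosen after the values were seen, the groups did not overlap in any pair. Both the raw and the adjusted exact permutation p were 0.1, the smallest that 3 arrays per group allow. Each member already separated upward with age, and miR-143-3p and miR-145a-5p separated downward. Separation in the pairs with miR-143-3p or miR-145a-5p was therefore fixed in advance and adds no evidence. The gains were 0.55 to 0.68 on miR-143-3p and miR-145a-5p, and the differences from miR-29a-3p were -0.34 to -0.23.

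**Figure D4:**
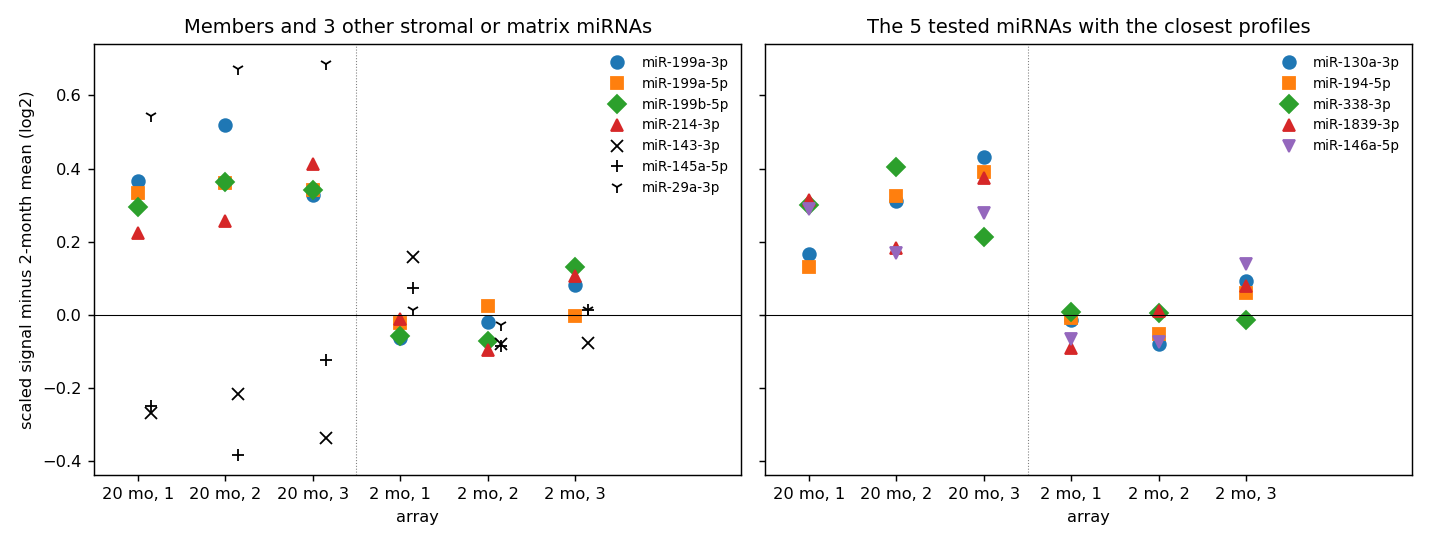
Scaled signal minus the young mean (log2, vertical axis) on each aged (20 mo) and young (2 mo) array, for the 4 tested members with miR-143-3p, miR-145a-5p and miR-29a-3p (left) and for the 5 closest miRNAs (right). The members lie between 0.22 and 0.52 on the aged arrays, below miR-29a-3p and above miR-143-3p and miR-145a-5p.

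Markers of other cells were read in the same fit, in which 65 of the 193 tested miRNAs had a positive difference. Negative differences were thus the more common kind. All 5 tested leukocyte markers of 6 listed (miR-142-3p, miR-142-5p, miR-223-3p, miR-155-5p and miR-146a-5p) had positive differences with a median of 0.38, and 0 passed (limma, 3 at an unadjusted p under 0.05). After scaling to the median or quantile normalization 3 of these 5 were called higher, and with normexp 1 of the 5 was negative. The summed scaled signal of the leukocyte list was 1.02 to 1.21 in aged and 0.799 to 0.921 in young kidney, and miR-150-5p was detected on 4 arrays. All 5 epithelial markers had negative differences, and 1 of them, miR-141-3p, was called lower at -0.38 (limma adjusted p = 0.0415). With scaling to the percentile of all probes all 5 were positive, with no scaling 3 were, and miR-141-3p was not called in any other scaling or background correction or in the authors' values (limma adjusted p = 0.145 to 0.943). Their sum was 7.66 to 8.70 in aged and 8.81 to 9.76 in young kidney. Both erythroid markers found on the array by name, of 3 listed, had negative differences and 0 passed (limma, 2 at an unadjusted p under 0.05; 1 was positive with the percentile of all probes and 1 was called lower after quantile normalization), with a sum of 6.31 to 7.11 in aged and 8.29 to 9.31 in young kidney. The 3 mesenchymal markers (miR-143-3p, miR-145a-5p and miR-140-3p) summed to 0.995 to 1.08 in aged and 1.03 to 1.17 in young kidney, which overlap. The tubule list summed to 6.51 to 7.93 in aged and 6.00 to 6.88 in young kidney, which overlap as well. For endothelium, miR-126-3p, with miR-126-5p detected on no array, gave 6.65 to 7.25 in aged and 6.23 to 6.86 in young kidney. These ranges also overlap, and of the scalings tried only quantile normalization gave miR-126-3p a negative difference. Of the 5 miRNAs closest in profile to the members, miR-146a-5p is in the leukocyte list and miR-194-5p in the tubule list. The part of these cell types in the differences of the members was not tested.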

How the data were processed

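RNA of 3 aged and 3 young kidney preparations was measured on 1-colour Agilent miRNA arrays of 1 slide. Per the file headers, spots were read with Feature Extraction 11.5.1.1 (design 046065, build mm9), and the deposited scanner files hold fluorescence intensity, background-corrected and not scaled between arrays. The authors' processed values are log2: each equalled the log2 total gene signal of the scanner software after a constant had been subtracted from the array. How that constant was set is not stated in the sources used here. Here outlier spots were left out, spots averaged per probe, scaled, summed per miRNA and set to a floor of -5.22 (log2). A miRNA was tested if at least 1 of its probes passed the background mark on all 3 arrays of either age, using limma 3.58.1 in R 4.3.3 (Benjamini-Hochberg, threshold 0.05). The fit was tested on simulated data. Arrays were counted separately. Within an age, 58.7 to 80.6% of detected probes differed between arrays by more than spot noise, where 5% would by that noise alone. Spot noise is variation within an array, so this check cannot show that the arrays are independent replicates. The normexp alternative was planned on mean spot signals and was run on spot medians, the column at hand (offset 50). The members and lists were chosen with earlier results of these data known. Named miRNAs were the members, the 5 closest in profile, and list members with an unadjusted p under 0.05 or among the 4 brightest. Files were read with the R packages data.table (version 1.17.8) and jsonlite (2.0.0), and figures drawn with matplotlib 3.10.9 under Python 3.11.15.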

Additional observations from a re-analysis of the deposited data

How the results depend on the processing

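In all 19 alternatives other than leaving out single replicates, the differences were positive for miR-199a-5p (0.18 to 0.76), miR-199b-5p (0.22 to 0.75) and miR-199a-3p (0.34 to 0.82), and in 18 of them for miR-214-3p. Against 2 members called higher, 0 were with normexp correction, with scaling to the percentile of all probes, with no scaling, with slide row as a block or within a row, and with the replicate block. A single member (1) was called in the authors' values, with no detection filter and with outlier spots kept, and 4 with scaling to the median. Of all tested miRNAs, 5.18%, 0.321%, 3.63% and 9.33% were called higher in these settings in that order, beside 4.15% in the reported fit. That share was 2.07% with normexp, 3.63% with the percentile of all probes and 0.518% with no scaling. It was 1.04% with slide row as a block and 1.04% with the replicate block. In none of these fits was a member called lower. Lost calls of miR-199a-3p and miR-199a-5p stood at 0.34 and 0.18 with normexp, 0.82 and 0.76 with the percentile of all probes, 0.61 and 0.55 with no scaling, and 0.37 and 0.33 with slide row as a block or within a row. miR-199a-3p alone was lost in the authors' values (0.52), with no filter (0.40, 1247 miRNAs tested) and with outlier spots (0.37). Its brighter probe, A_54_P2381, gave 0.39 and missed in the fit of 354 probes, an alternative chosen after seeing the data (limma adjusted p = 0.0510), but passed as the brightest probe in the fit of 193 miRNAs (0.0434). miR-199b-5p gained a call with scaling to the median (0.47), quantile normalization (0.42), a larger floor (0.33), the median over spots (0.34) and the mean of log2 probe values (0.34), and miR-214-3p with scaling to the median (0.44). With normexp miR-214-3p turned to -0.028, and that setting adds an offset of 50 to each spot, beside intensities of 58.6 to 98.7 in aged and 48.3 to 57.3 in young kidney for its main probe. Pair differences turned sign for miR-199a-5p minus miR-199b-5p (-0.042 with normexp, -0.067 with mean log2 probe values), miR-199a-5p minus miR-214-3p (-0.024 with quantile normalization, -0.046 in the authors' values) and miR-199b-5p minus miR-214-3p (-0.11 with quantile normalization, -0.058 in the authors' values). The cause of these changes was not tested.

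With each replicate left out in turn, the members called higher ranged from 0 to 2, while 1.55 to 6.22% of all tested miRNAs were called higher. The differences ranged from 0.35 to 0.45 for miR-199a-3p and from 0.33 to 0.36 for miR-199a-5p. For miR-199b-5p they ranged from 0.30 to 0.40, and for miR-214-3p from 0.24 to 0.35. The same 3 pair differences ranged from -0.055 to 0.061, from -0.0087 to 0.11 and from -0.0016 to 0.088. The labels number replicates 1 to 3 at both ages, and same-numbered arrays deviated together with correlations of 0.12, -0.58 and 0.31. These 3 values show no pairing by number but are too few to exclude it. In the replicate block fit miR-199a-3p (0.40) and miR-199a-5p (0.34) had limma adjusted p of 0.0851 and 0.0789.

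Beside 8 higher and 7 lower calls over all 193 miRNAs, there were 4 and 0 with normexp, 1 and 1 with no scaling, 10 and 0 in the authors' values, 4 and 2 with no filter, 2 and 3 with slide row as a block and 2 and 1 with the replicate block, and 3 to 12 and 2 to 27 with single replicates left out. The median over all tested miRNAs shifted by 0.41 under the percentile of all probes, 0.20 with no scaling, 0.14 under the median and 0.11 in the authors' values. The members' median stood 0.42 above it under the first 3 and in the reported fit. These had to be equal, as scaling by 1 constant per array shifts all miRNAs alike. The members' median stood 0.45 above it in the authors' values, 0.51 with quantile normalization and 0.31 with normexp. Of the other named miRNAs, miR-1839-3p was -0.011 with normexp and miR-21a-5p -0.078 with quantile normalization. With the percentile of all probes miR-143-3p was 0.14, miR-145a-5p 0.16, miR-218-5p 0.0049 and miR-22-3p 0.39. miR-22-3p was also 0.12 with scaling to the median, 0.18 with no scaling and 0.097 in the authors' values, and -0.064 to 0.030 with single replicates left out. miR-503-5p lay at the floor at both ages with a larger floor.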
